A study of Mus musculus with 2 samples.

Results

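This account covers 8 mouse genes that encode neurotrophins, the glial cell line-derived neurotrophic factor GDNF and their receptors. They are the rows named Bdnf, Ntf3, Gdnf, Ntrk2, Ntrk3, Ngfr, Ret and Gfra1 in a table of 43437 genes, together with their 34 rows in a table of 103615 isoforms. The 2 libraries came from wild-type fetuses of the outbred ICR stock at E12.5, 1 made from whole body and the other from telencephalon, the front part of the embryonic brain; no treatment was given. The labels give neither the number nor the sex of the fetuses, nor whether the head was part of the whole body. Levels are in FPKM, fragments mapped per kilobase of transcript and scaled to the library's total, so they can be compared between genes. With 1 library for each tissue there is no replicate error and no p-value, and each difference describes this pair of libraries. The genes are described by their roles as ligands, neurotrophin receptors and GDNF receptors.

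Neurotrophins are secreted proteins on which sensory, sympathetic and central neurons depend for survival and growth. BDNF acts on TrkB, the product of Ntrk2, and NT-3, the product of Ntf3, acts mainly on TrkC, the product of Ntrk3, while p75NTR, the product of Ngfr, binds all neurotrophins. GDNF acts through GFRα1, a receptor anchored to the membrane by lipid and encoded by Gfra1, which presents the ligand to the tyrosine kinase Ret. In the embryo GDNF and Ret are known for the growth of the enteric nervous system and for branching of the ureteric bud in the kidney. Ntrk2, Ntrk3 and their truncated forms are made from single genes by alternative splicing, and the truncated receptors bind the ligand without the kinase domain.

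The whole-body library held about 29350000 fragments and the telencephalon library 22730000, as recovered from the FPKM steps of single-isoform genes. On a transcript of 2000 bases 1 fragment corresponded to 0.0203 and 0.0264 FPKM. Fragment numbers and their 95% intervals below are estimates from this depth and cover counting error only. Of 10 telencephalon marker genes 9 were higher in that library by 2-fold or more, with Dlx2 at 212 against 5.40 FPKM and Lhx2 at 91.3 against 20.4. All 9 connective tissue genes were lower in it, with Col1a1 at 3.16 against 527 FPKM and Col3a1 at 6.80 against 431. The 10 telencephalon markers summed to 1067 FPKM there and to 54.9 in whole body, so their transcripts were present in both libraries.

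The tyrosine kinase receptors Ntrk2 and Ntrk3 were the most abundant of the 8 genes in telencephalon, whereas Ngfr and Gfra1 were the most abundant in whole body. Of the 6 genes that reached 1 FPKM in either library, 4 were at least 2-fold lower in telencephalon on the scale of log2(FPKM + 1), namely Ntf3, Ngfr, Ret and Gfra1, and Ntrk2 and Ntrk3 lay within 2-fold. Of the 14987 genes that reached 1 FPKM somewhere, 21.2% were lower in telencephalon by this rule and 9.39% were higher. Ntf3 and Ret passed 1 FPKM through the whole-body library alone, so their place among the lower genes follows in part from the filter. Bdnf and Gdnf stayed under 1 FPKM in both libraries and are given by their fragments. The median log2 ratio of the 6 genes was -1.37 and that of all genes reaching 1 FPKM -0.16. Rescaling to TPM moved the latter to -0.02.

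**Figure D1:**
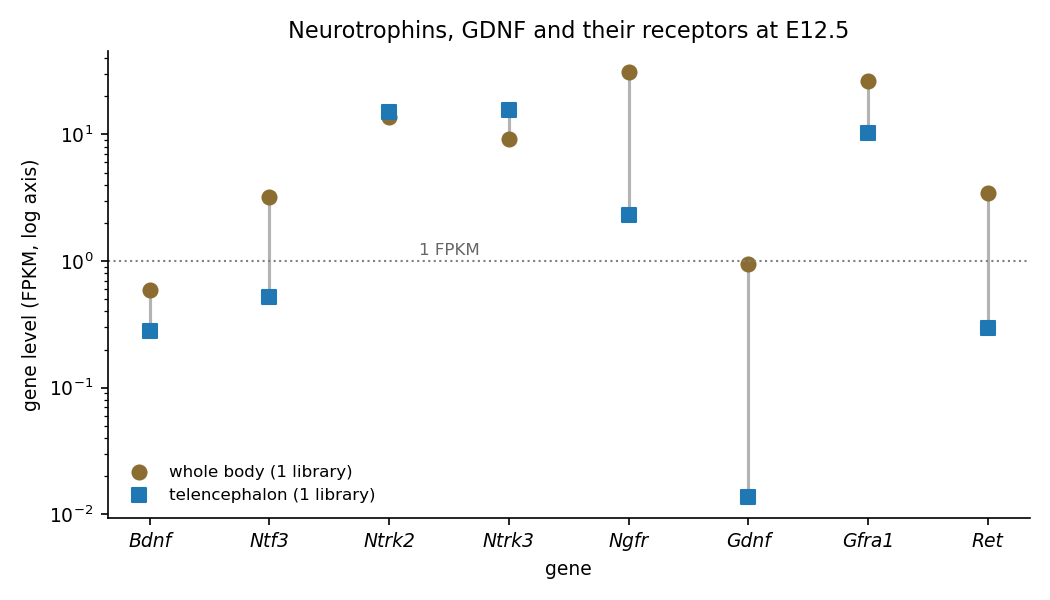
Level of each gene (FPKM, log axis) in the whole-body library (circles) and the telencephalon library (squares), 1 library each, with a grey line joining the values of a gene and a dotted line at 1 FPKM. Ntrk2 and Ntrk3 are the only genes whose square lies above the circle, and Gdnf has the longest line, from 0.940 to 0.0138 FPKM.

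All 3 ligand genes were weakly expressed in telencephalon, none reaching 1 FPKM there. Ntf3 (chromosome 6, 126101412 to 126166910, GRCm38) reached 3.21 FPKM in whole body against 0.523 in telencephalon, or about 102 and 13 fragments. The whole-body value was 6.28 times the telencephalon value after scaling for depth, with a 95% exact interval from 3.40 to 11.8. The isoform Ntf3-202 held 88.3% of the whole-body FPKM and nearly all of the telencephalon FPKM. Ntf3 was thus detected in both libraries, with the whole body on the higher side of the counting interval.

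Bdnf (chromosome 2, 109674700 to 109727007) reached 0.594 FPKM in whole body against 0.278 in telencephalon. These values correspond to about 64 and 23 fragments, and the depth-scaled ratio of whole body to telencephalon was 2.16 (95% exact interval 1.32 to 3.64). Exons of an antisense gene overlap those of Bdnf, and in the shared bases an unstranded kit cannot tell the strands apart. The interval does not cover this. Bdnf has several promoters, each with its own first exon spliced to the shared coding exon. Of its 11 isoforms in the table, Bdnf-205 took 65.3% of the FPKM in whole body and 94.1% in telencephalon. Bdnf-209 took 28.4% and 5.90%, or about 18 and 1 fragments, and Bdnf-201 took 6.31% in whole body. These 2 more abundant isoforms share 3626 bases and differ by 347 and 339 bases of their own, so few fragments can tell them apart.

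Gdnf (chromosome 15, 7810846 to 7837575) reached 0.940 FPKM in whole body against 0.0138 in telencephalon. It has 1 isoform in the table, with about 93 whole-body fragments and 1 telencephalon fragment. The depth-scaled ratio was 68.2, with a 95% exact interval from 12.6 to 2875. With the pseudocount of 1 FPKM its log2 ratio was -0.94, which understates the difference of so weak a gene. The Gdnf signal of these libraries lay almost wholly on the whole-body side.

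The kinase and truncated isoforms of the Trk receptors part at an exon junction. The last 30 shared coding bases are shown in lower case and the bases that follow in capitals. The split is shown because the shares of these isoforms are the main difference found within Ntrk2 and Ntrk3. The shares are of whole isoforms, and reads at the junction were not counted. The sequences are from the GENCODE M21 transcripts on GRCm38, written 5′ to 3′ on the transcript strand. For Ntrk2-202, the truncated isoform, the capitals run to the stop codon (chr13:58932023-58932060, plus strand, exon 12 of 12), and for Ntrk2-201 they give the same number of bases of exon 13 of 18 (chr13:58985802-58985839).
Ntrk2-202 truncated: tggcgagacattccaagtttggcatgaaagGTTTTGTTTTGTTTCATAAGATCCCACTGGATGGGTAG
Ntrk2-201 kinase: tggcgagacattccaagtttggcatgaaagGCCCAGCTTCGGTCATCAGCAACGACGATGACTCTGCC
For Ntrk3 the capitals are the first 90 of the truncated isoform's 254 own coding bases, stop codon included (chr7:78304337-78304426, minus strand, exon 13 of 14), and the first 90 bases of exon 13 of 17 in the kinase isoform (chr7:78260325-78260414).
Ntrk3-202 truncated: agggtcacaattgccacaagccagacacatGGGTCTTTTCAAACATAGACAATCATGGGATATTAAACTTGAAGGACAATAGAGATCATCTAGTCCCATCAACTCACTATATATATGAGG
Ntrk3-201 kinase: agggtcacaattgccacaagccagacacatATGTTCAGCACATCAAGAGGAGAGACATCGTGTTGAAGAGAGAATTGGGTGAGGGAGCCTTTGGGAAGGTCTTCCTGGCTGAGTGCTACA
Before the split the isoforms share 1393 coding bases in Ntrk2 and 1585 in Ntrk3.

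An isoform was counted as kinase where its translated coding sequence holds the catalytic loop of a tyrosine kinase followed by the metal-binding motif. The 27 bases that encode the start of the catalytic loop are shown for the kinase isoform of each gene, with the 3 bases that differ between the genes in capitals (chr13:59060358-59060384, plus strand, exon 16 of 18, and chr7:78247233-78247259, minus strand, exon 15 of 17).
Ntrk2-201: caccgTgacctggccacCCggaactgc
Ntrk3-201: caccgGgacctggccacGAggaactgc
No other isoform of Ntrk2 is in the table than Ntrk2-201, with 821 codons and the kinase, and Ntrk2-202, with 476 codons and no kinase.

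Ntrk2 as a gene was within 2-fold between the libraries, but its kinase isoform was about 2.11 times as abundant in telencephalon as in whole body. Ntrk2 (chromosome 13, 58806569 to 59133970) reached 13.7 FPKM in whole body against 15.1 in telencephalon, a log2 ratio of 0.13, and in depth-scaled fragments it was 1.16 times as high in telencephalon (95% exact interval 1.10 to 1.23). The kinase isoform stood at 3.16 and 6.66 FPKM, about 780 and 1272 fragments, a depth-scaled ratio whose 95% exact interval ran from 1.92 to 2.30. The truncated isoform went the other way, with 10.5 FPKM in whole body against 8.43 in telencephalon (0.802 times, interval 0.745 to 0.859). The kinase form therefore made up 23.1% of Ntrk2 FPKM in whole body and 44.1% in telencephalon, a difference of 21.0 percentage points. In fragments, which weight an isoform by its length, the shares were 27.9% (95% exact binomial interval 26.3 to 29.6) and 50.5% (48.5 to 52.5). The isoforms share 1737 bases, and 7007 bases belong to the kinase isoform alone and 5109 to the truncated one, so most of the sequence of either assigns its reads without ambiguity.

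Ntrk3 was higher in telencephalon as a gene, by less than 2-fold in FPKM, and its kinase isoforms differed more than its truncated isoform. Ntrk3 (chromosome 7, 78175959 to 78738012) reached 9.21 FPKM in whole body against 15.5 in telencephalon, a log2 ratio of 0.70. The kinase isoforms together stood at 2.09 and 5.98 FPKM, 2.85 times as high in telencephalon, and the truncated isoform Ntrk3-202 at 7.12 and 9.52 FPKM, 1.34 times as high. In depth-scaled fragments the 95% exact intervals of these ratios were 2.42 to 2.89 and 1.20 to 1.47, and they do not overlap. The kinase share was 22.7% of the FPKM in whole body and 38.5% in telencephalon, a difference of 15.7 percentage points. In fragments the shares were 49.3% (46.8 to 51.9) and 65.9% (63.9 to 67.8), because Ntrk3-201 is annotated with 19703 bases and Ntrk3-202 with 3977. For the same reason the whole gene was 1.98 times as high in telencephalon in depth-scaled fragments but 1.69 times in FPKM. The level of the share thus depends on the unit, while the difference between the libraries was similar in both.

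**Figure D2:**
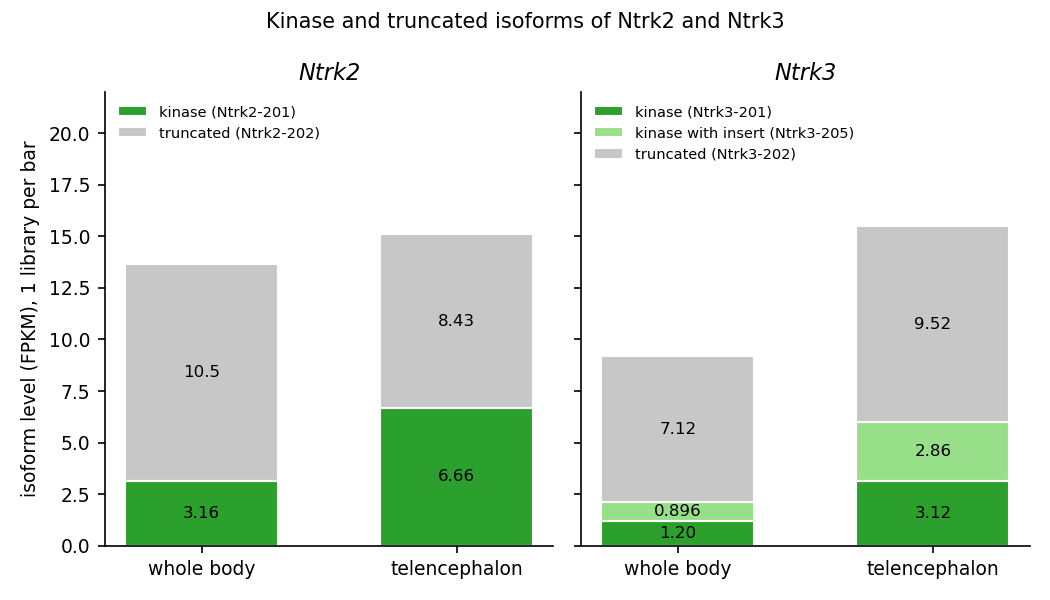
Stacked bars of isoform level (FPKM) for Ntrk2 (left) and Ntrk3 (right) in the whole-body and telencephalon libraries, 1 library per bar with no error bars; green marks kinase isoforms and grey the truncated isoform. The green part of Ntrk2 goes from 3.16 to 6.66 FPKM while the grey part goes from 10.5 to 8.43.

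Within the Ntrk3 kinase isoforms, Ntrk3-205 carries a further exon of 42 bases inside the kinase coding sequence (chr7:78204103-78204144, minus strand, exon 16 of 18). The exon is in capitals between 30 bases on either side, and the isoform without it joins the same flanks.
Ntrk3-205: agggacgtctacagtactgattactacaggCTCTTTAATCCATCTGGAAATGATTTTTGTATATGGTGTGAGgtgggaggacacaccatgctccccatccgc
Ntrk3-201: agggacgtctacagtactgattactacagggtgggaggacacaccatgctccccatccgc
TrkC forms with an insert in the kinase domain are known to differ in signalling from the form without one. Ntrk3-205 reached 0.896 FPKM in whole body against 2.86 in telencephalon, about 62 and 152 fragments. It made up 42.8% and 47.8% of the kinase FPKM, but 8.33% and 9.97% of the kinase fragments, with overlapping 95% intervals of 6.45 to 10.6 and 8.50 to 11.6. Ntrk3-206, whose insert is longer, was under 0.0001 FPKM in both libraries. Against Ntrk3-201, Ntrk3-205 has 42 bases of its own and shares 2636, so few fragments can tell them apart. The intervals do not cover an error in that division. As the lengths of Ntrk3-201 and Ntrk3-205 differ (19703 and 2678 bases), the division also enters the summed kinase FPKM. No difference between the libraries in the use of the insert was detectable within these limits.

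To place the kinase shares, all genes were taken that have both isoforms with these kinase motifs and coding isoforms without them, at 5 FPKM or more of such isoforms in both libraries. There were 15 such genes, Ntrk2 and Ntrk3 included, and their median difference in kinase share was 0.924 percentage points. A kinase share at least 10 points higher in telencephalon was found in 13.3% of them, and these 2 were Ntrk2 and Ntrk3 themselves. The 10-point threshold was chosen after values were seen. A share at least 10 points lower was found in 13.3% as well, with the largest difference of all in Jak1 (-41.1 points). Differences in isoform use of the size seen in Ntrk2 and Ntrk3 were not rare in general. Among 6326 genes with 2 or more isoforms, 14.7% had an isoform whose share differed as much as in Ntrk2 or more, and 23.9% as much as in Ntrk3 or more.

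Ngfr, the receptor shared by all neurotrophins, had the largest log2 ratio in size of the 6 genes that reached 1 FPKM. Ngfr (chromosome 11, 95568818 to 95587735, minus strand) reached 31.1 FPKM in whole body against 2.29 in telencephalon, about 2848 and 162 fragments. The depth-scaled ratio was 13.6 with a 95% exact interval from 11.6 to 16.1, and the log2 ratio was -3.29. In whole body 80.4% of the genes compared had a lower level than Ngfr, and in telencephalon 26.2%. The table lists 1 isoform, of 3446 bases and 427 codons, so no split of reads enters this value.

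Ret, the signalling receptor of GDNF, was low in the telencephalon library. Ret (chromosome 6, 118151745 to 118197718) reached 3.42 FPKM in whole body against 0.294 in telencephalon, about 451 and 29 fragments, a depth-scaled ratio of 11.9 (95% exact interval 8.27 to 18.2). Its isoforms end in different tails after 3190 shared coding bases, and the junction is shown because these are the long and short forms of the receptor. Capitals mark the own bases of the short tail to its stop codon (chr6:118155256-118155287, minus strand) and the same number of bases of the long tail (chr6:118153979-118154010).
Ret-202 short tail: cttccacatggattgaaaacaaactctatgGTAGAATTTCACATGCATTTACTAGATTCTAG
Ret-201 long tail: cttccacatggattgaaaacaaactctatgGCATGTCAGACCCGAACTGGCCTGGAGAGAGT
The long-tailed form, of 1115 codons against 1073, made up 33.6% of Ret FPKM in whole body and 22.9% in telencephalon. In fragments the shares were 38.3% (33.8 to 43.0) and 26.7% (12.7 to 47.2), and with 29 fragments in telencephalon no difference in tail use was detectable.

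Gfra1, the GDNF-binding receptor, was lower in telencephalon but remained well above Ret there. Gfra1 (chromosome 19, 58235604 to 58455909) reached 26.3 FPKM in whole body against 10.3 in telencephalon, a log2 ratio of -1.27. An isoform of 349 bases, Gfra1-202, contributed 2.57 and 3.18 FPKM, or 9.78% and 30.9% of the gene. Transcripts about as long as the fragments receive a large length correction, so this part of the value is uncertain, and its fragments were not estimated. Without isoforms under 600 bases the log2 ratio was -1.56. On those longer isoforms there were about 2295 and 534 fragments, a depth-scaled ratio of 3.33 (95% exact interval 3.03 to 3.66). In telencephalon the 534 Gfra1 fragments stood against 29 for Ret.

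The coding sequences of Gfra1-209 and Gfra1-203 differ by an exon of 15 bases. This exon is shown because Gfra1-203, the full-length isoform without it, accounted for most of the gene's difference. The exon is in capitals between 30 coding bases on either side (chr19:58392573-58392587, minus strand, exon 4 of 10 in Gfra1-209).
Gfra1-209 with the exon: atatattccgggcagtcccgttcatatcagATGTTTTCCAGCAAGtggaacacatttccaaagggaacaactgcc
Gfra1-203 without the exon: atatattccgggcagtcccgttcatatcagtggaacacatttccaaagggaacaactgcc
The reading frame is kept, and the isoforms encode 468 and 463 codons. Gfra1-203 reached 11.0 FPKM in whole body against 0.546 in telencephalon, about 1320 and 51 fragments, so it was 20.1 times as high in whole body in FPKM. The 95% exact interval of the depth-scaled fragment ratio ran from 15.2 to 27.1. The 3 full-length isoforms with the exon together stood at 10.9 and 6.36 FPKM, 1.72 times as high in whole body. The interval of their depth-scaled fragment ratio, 1.38 to 1.73, lay far below that of Gfra1-203.

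The form without the 15-base exon thus made up 50.2% of full-length Gfra1 FPKM in whole body and 7.90% in telencephalon, a difference of -42.3 percentage points. In fragments the shares were 57.9% (55.8 to 59.9) and 9.52% (7.23 to 12.4). Over all isoforms, the short one of 349 bases included, the shares were 41.9% and 5.30%. A difference in an isoform's share as large as that of Gfra1 or larger was found in 3.62% of the 6326 genes with 2 or more isoforms. Among the isoforms with the exon, Gfra1-209 reached 9.44 FPKM in whole body against 3.32 in telencephalon, and Gfra1-201 at 1.08 and 2.48. All 4415 bases of Gfra1-203 are also part of Gfra1-201, which has 226 further bases, so few bases separate some of these isoforms. Against Gfra1-209, Gfra1-203 has 1206 bases of its own, which lie outside the exon, while Gfra1-209 has the 15 exon bases alone. The shares are of whole isoforms, and reads across the exon were not counted. The intervals do not cover an error in the division of reads among isoforms, and its part in the result was not tested.

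**Figure D3:**
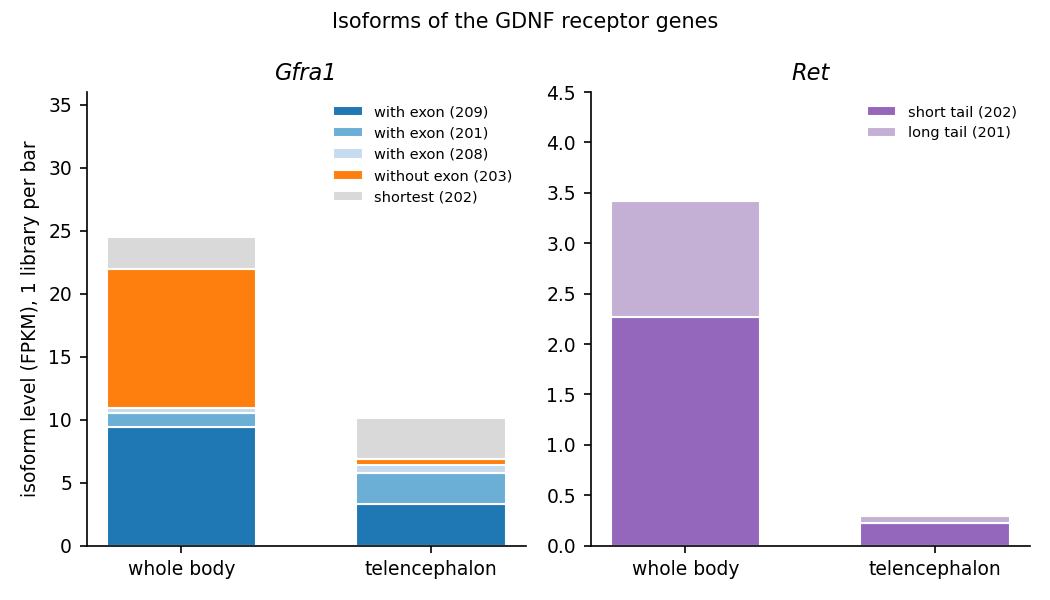
Stacked bars of isoform level (FPKM) for Gfra1 (left, isoforms of at least 5% of the gene in either library) and Ret (right, on a smaller scale) in the whole-body and telencephalon libraries, 1 library per bar with no error bars. The orange part, Gfra1 without the 15-base exon, goes from 11.0 to 0.546 FPKM, and the whole Ret bar from 3.42 to 0.294.

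The order of the 8 genes differed between the libraries. In whole body it ran from Ngfr and Gfra1 through Ntrk2, Ntrk3, Ret, Ntf3 and Gdnf to Bdnf, and Ret and Ntf3 could not be told apart by their counting intervals (3.11 to 3.75 and 2.61 to 3.88 FPKM). In telencephalon Ntrk3 and Ntrk2 led, with overlapping intervals of 14.9 to 16.2 and 14.5 to 15.7 FPKM. Gfra1 and Ngfr followed, then Ntf3, Ret and Bdnf, whose intervals of 0.286 to 0.920, 0.195 to 0.418 and 0.176 to 0.418 FPKM overlapped, and Gdnf was last. Each receptor gene stood above the gene of its own ligand in both libraries, Ret and Gfra1 above Gdnf, Ntrk2 above Bdnf and Ntrk3 above Ntf3. In a library made from a whole tissue, fewer cells of a type and less RNA per cell cannot be told apart.

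**Figure D4:**
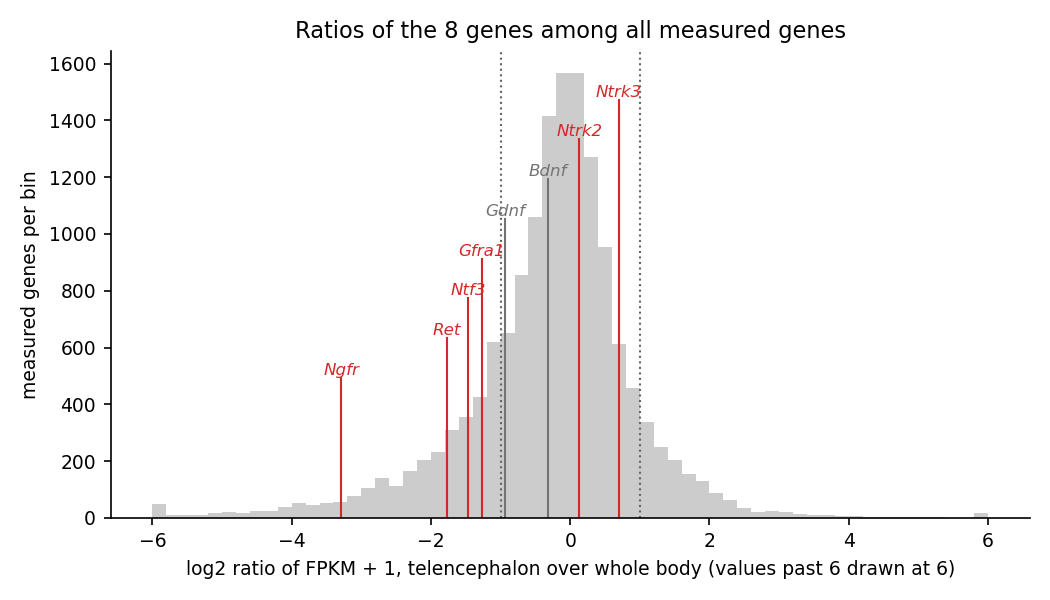
Histogram of the log2 ratio of FPKM + 1 (telencephalon over whole body) for the 14987 genes that reached 1 FPKM in at least 1 library, with the values of the 8 genes as vertical lines (grey for Bdnf and Gdnf, which stayed under 1 FPKM) whose height has no meaning, and dotted lines at 2-fold. Ngfr at -3.29 lies farthest to the left, and Ntrk2 at 0.13 and Ntrk3 at 0.70 lie inside the dotted lines.

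On the scale of FPKM + 1, none of the other ligands and receptors of both families passed 2-fold upwards in telencephalon. Of 16 genes, 15 reached 1 FPKM in either library, 9 of them at least 2-fold lower in telencephalon (median log2 ratio -1.19). Over all genes 21.2% were lower and 9.39% higher. Ntf5, the gene of neurotrophin-4, stood at 0.0810 FPKM in telencephalon against 1.20 in whole body.

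The ligands related to GDNF were low in telencephalon as well. Nrtn, the gene of neurturin, stood at 1.41 against 8.74 FPKM, Artn, the gene of artemin, at 0.250 against 3.06, and Pspn, the gene of persephin, was listed at 0 against 1.79. Their co-receptors were unequal. Gfra2, which binds neurturin, stood at 1.60 against 7.41 FPKM. Gfra3, which binds artemin, stood at 0.0265 against 10.9, about 1 and 535 fragments, while Gfra4 stood at 6.98 against 10.9 and was within 2-fold. Gdf15 stood at 0.291 against 1.49 FPKM, and Gfral, its receptor, was listed at 0 in both libraries.

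The sortilin family and the adhesion molecule Ncam1 had values in both directions. Sort1, the gene of sortilin, a partner of p75NTR in binding proneurotrophins, stood at 41.1 against 27.8 FPKM, and Ncam1, which can also bind GDNF with GFRα1, at 91.7 against 54.8. The sortilin relatives Sorcs1 and Sorcs3 stood at 4.26 against 3.88 and 3.83 against 1.62 FPKM; Sorcs3 was within 2-fold on the scale of FPKM + 1 (log2 ratio 0.88) but not in plain FPKM (2.36-fold). Sorcs2 was lower, at 7.71 against 18.8.

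Adaptors that carry the signal inside the cell went in both directions. Of 21 genes, all reaching 1 FPKM, 5 were higher in telencephalon by 2-fold or more, 3 lower and 13 within 2-fold (median 0.16), beside 10409 of all 14987 genes within 2-fold. Shc3, a Shc adaptor of neurons, stood at 10.1 FPKM in telencephalon against 2.35 in whole body, and Dok6, a docking protein that binds Ret, at 5.92 against 1.49. Shc1, the widely expressed member of the Shc family, stood at 6.13 against 60.9 FPKM, and Grb7 at 0.219 against 5.35. Of 15 processing and negative regulator genes 2 were higher, 6 lower and 7 within 2-fold (median -0.70). Over all genes 9.39% were higher and 21.2% lower. Nedd4l, a ubiquitin ligase, stood at 21.2 against 7.23 FPKM and Rtn4r, the Nogo receptor, at 19.5 against 7.50. Lrig3, a leucine-rich repeat membrane protein, stood at 1.08 against 19.3, and Spry1, an inhibitor of receptor tyrosine kinase signalling that restrains Ret in the ureteric bud, at 3.12 against 15.6.

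Genes that respond to receptor kinase signalling were lower in telencephalon or within 2-fold. Of 11 response genes 9 reached 1 FPKM in either library, 4 of them lower and none higher (median -0.97). Dusp6, a phosphatase induced by the ERK pathway, stood at 4.43 against 23.3 FPKM and Egr1, an immediate early gene, at 1.10 against 7.70. Etv1, a transcription factor of proprioceptive sensory neurons among others, stood at 5.59 against 2.57 FPKM and Arc at 1.87 against 0.748, both within 2-fold on the scale of FPKM + 1. These genes respond to many receptors besides the Trk family and Ret. Across the 4 lists 7 of 60 genes were higher and 22 lower, 31 were within 2-fold, and the median was -0.48. Over all genes that reached 1 FPKM, 9.39% were higher and 21.2% lower, and the median was -0.16. Of the 63 listed genes 12 were under 1 FPKM in telencephalon, some of them in whole body too. The count of lower genes therefore follows in part from the filter.

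**Figure D5:**
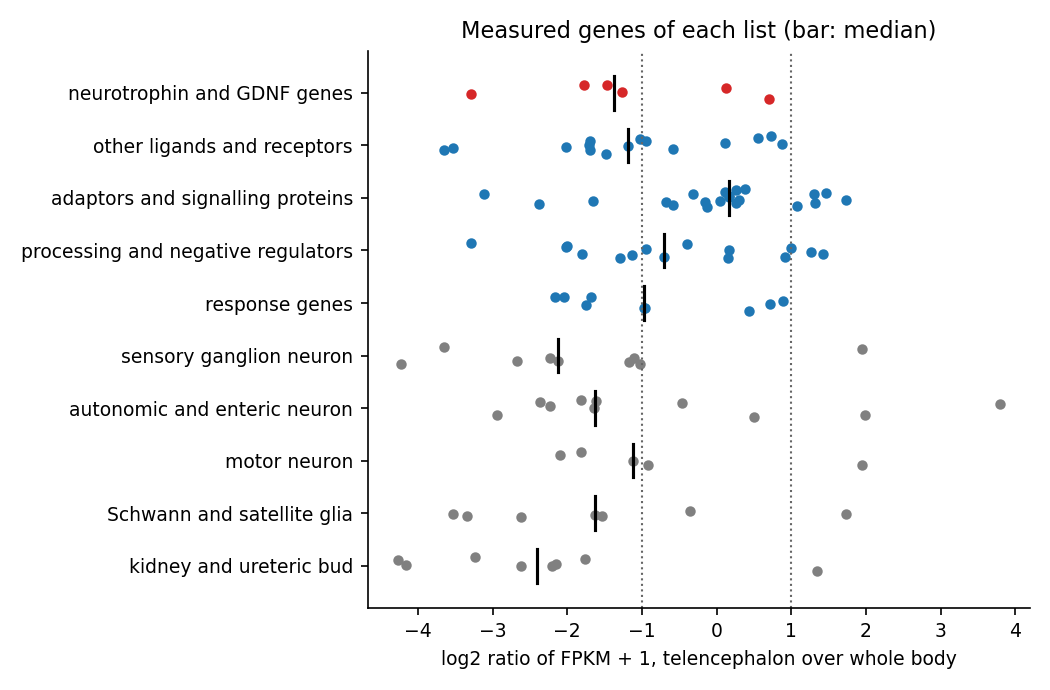
Log2 ratio of FPKM + 1 (telencephalon over whole body) of each gene that reached 1 FPKM in at least 1 library, by list, with black bars at the medians, dotted lines at 2-fold and a small random vertical offset; red marks 6 of the 8 neurotrophin and GDNF genes, blue the other pathway lists and grey the markers of 5 cell types or tissues outside the brain (telencephalon and connective tissue markers are not drawn). The adaptors centre near 0 at 0.16, and the grey lists centre between -1.12 and -2.41.

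Markers of tissues outside the brain that are known to express these receptors are given beside the differences of Ngfr, Ret and Gfra1, as counts of genes at least 2-fold lower or higher in telencephalon (21.2% and 9.39% over all genes). Many of the lower ones passed 1 FPKM through whole body alone: 7 of 9 sensory ganglion genes, 5 of 10 autonomic and enteric, 6 of 8 motor neuron, 6 of 8 Schwann and satellite glia and 7 of 10 kidney genes were under 1 FPKM in telencephalon, some of them in whole body too. The summed FPKM was lower in telencephalon for the sensory ganglion and kidney lists and higher for the other lists, where 1 or 2 genes carried most of it. Of 9 sensory ganglion genes 8 were lower and 1 higher, and the list summed to 83.7 whole-body FPKM against 52.0 in telencephalon. Prph, an intermediate filament of peripheral neurons, stood at 0.573 against 28.4 FPKM. Most of the telencephalon sum came from Isl1 (47.5 against 11.6 FPKM), which neurons of the striatum also express, and Prdm12 followed at 2.39 against 5.93.

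Of 10 autonomic and enteric neuron genes 6 were lower and 2 higher, with sums of 69.6 and 130 FPKM in whole body and telencephalon, and Dbh, which makes noradrenaline, was listed at 0 in telencephalon. Npy stood at 38.2 against 26.7 FPKM and Th at 5.50 against 7.93. Of the motor neuron genes 5 of 8 reached 1 FPKM, 3 of them lower and 1 higher, with sums of 24.3 and 49.5 FPKM and Lhx3 at 0 in telencephalon. Isl1 was the largest term of both sums, Isl2 stood at 0.228 against 4.25 FPKM, and Slc18a3, the acetylcholine transporter of synaptic vesicles, at 1.14 against 3.05.

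Of 7 Schwann and satellite glia genes at 1 FPKM or more, out of 8, 5 were lower and 1 higher, with sums of 119 and 255 FPKM and Cdh19 at 0 in telencephalon. Fabp7, also a gene of radial glia, took most of both sums at 250 against 74.7 FPKM. Of 8 kidney and ureteric bud genes at 1 FPKM or more, out of 10, 7 were lower and 1 higher, with sums of 92.3 and 7.0 FPKM and Hoxb7 at 0 in telencephalon. Six2, of the nephron progenitors, stood at 1.10 against 36.5 FPKM, Wnt11, of the ureteric bud tips, at 0.207 against 22.3, Eya1 at 1.66 against 11.2 and Calb1, which neurons also express, at 3.82 against 0.890. The connective tissue genes summed to 1712 whole-body FPKM against 17.3 in telencephalon. The part of these cell types in the differences of Ngfr, Ret, Gfra1, Ntf3 and Gdnf, and in the whole-body isoform shares, was not tested.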

How the data were processed

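Polyadenylated RNA was sequenced on a HiSeq 2000 from an unstranded kit, 1 library per tissue. The authors deposited FPKM per gene and per isoform. TopHat, Cufflinks and Cuffdiff were used with GRCm38, per the submitters' processing notes; versions and the annotation release are not given in the sources used here. Coordinates, transcript lengths, coding sequences and printed bases come from GENCODE M21 (42276 genes and all 8 genes and 34 isoforms of the set matched), whose lengths may differ from the authors'.

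Ratios are log2(FPKM + 1), and genes reaching 1 FPKM in at least 1 library were counted past 2-fold. No count model was run, since FPKM are not counts, and no test, since each group has 1 library. Depth was fitted on single-isoform genes of 2000 to 8000 bases (645 and 692); in as many held-out genes 92.9% and 91.6% of values were whole within 0.1 fragments. Fragments were not estimated for isoforms under 600 bases. Intervals are exact binomial at 95% (scipy 1.17.1, Python 3.11.15) and cover counting error only; the libraries have no molecular identifiers. Antisense exons overlap Bdnf and Gfra1. Gm16277, opposite Gfra1, is listed at 0. Gm45346, opposite Bdnf, shares 896 exon bases with it and has no listed level. With an unstranded kit, its reads in those bases cannot be told from reads of Bdnf.

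The genes, lists, classes and alternatives were chosen with earlier results of these data known. All genes of the set, all listed ligands and receptors, the 2 highest and 2 lowest ratios of each other pathway list and the 2 most abundant genes of each cell type list in either library are named, apart from those of the telencephalon and connective tissue lists, where a part is given. Some genes that this rule names are counted in their lists but not reported here. The isoform splits of Gfra1, Ret and the Ntrk3 insert, the 10-point threshold and the 600-base limit were chosen after values were seen. The rules were tested on simulated data.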

Additional observations from a re-analysis of the deposited data

How the results depend on the processing

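A common upper quartile and TPM, which could turn the direction of any gene, left it the same for the 8 genes. Leaving out isoforms under 300 or 600 bases, or those not protein-coding, could turn it only in genes with several isoforms, and did not. A pseudocount or floor cannot turn it. With a pseudocount of 5 FPKM or a floor of 5 FPKM, 2 genes of the set counted as lower, Ngfr and Gfra1, in place of 4. In TPM 5 counted as lower, Gdnf among them (log2 ratio -1.48). Of the other pathway genes, 11 counted as higher with a pseudocount of 0.1 FPKM, 12 in TPM and 3 with a pseudocount of 5 FPKM, in place of 7, and 12 as lower with a pseudocount of 5 FPKM in place of 22. The counts over all genes moved in the same directions. There 1765, 2126 and 800 counted as higher with these settings in place of 1408. With a pseudocount of 5 FPKM 1490 counted as lower in place of 3170. In TPM 16791 genes reached the floor in place of 14987. Shares of recovered fragments moved the kinase share of Ntrk2 to 27.9% in whole body and 50.5% in telencephalon and that of Ntrk3 to 49.3% and 65.9%, because they weight isoforms by length. The differences between the libraries, 22.6 and 16.5 points in fragments, stayed close to 21.0 and 15.7. No replicate could be left out and no paired analysis was possible because each group has 1 library. Gdnf, Bdnf, Ret and Ntf3 in telencephalon rest on about 1, 23, 29 and 13 fragments, which limits their ratios and isoform shares.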
